A study of Mus musculus with 5 samples.

Results

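The genes described here are the 10 members of a fixed list for oxidative base excision repair: Ogg1, Mutyh, Nthl1, Neil1, Neil2, Neil3, Ung, Apex1, Polb and Xrcc1. They were found by gene symbol in the expression table of each library, which lists 46078 genes, and each symbol matched 1 gene in all 5 tables. The rule goes by function and uses no measured value.

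The libraries were made from primary neural precursor cells (NPCs), cultured from the subventricular zone, a germinal region of the adult forebrain. All came from C57BL/6 mice without a mutation, labelled female and aged 5 to 8 weeks. The study's methods take each biological replicate from a single animal and give an older adult age than the labels. All cells received PBS in a sham exposure on plates coated with poly-D-lysine, for 1 h in 2 libraries (replicates 1 and 2) and for 8 h in 3 libraries (replicates 13, 14 and 15). By the study's methods, the PBS was added the day after plating, so the times count from that addition. The series is the control arm of an experiment on hydrogen peroxide, and libraries of exposed cells were not analysed here. The data thus give the levels of the repair genes without added oxidant and their change between 1 h and 8 h of sham exposure.

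Base excision repair removes small base lesions, among them 8-oxoguanine and oxidised pyrimidines that reactive oxygen species leave in DNA. A glycosylase cuts the damaged base from the sugar, an endonuclease or the glycosylase itself opens the strand, and a polymerase and a ligase fill and seal the gap. Neural stem cells live long and divide repeatedly, and unrepaired 8-oxoguanine pairs with adenine at the next replication and leaves a mutation.

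Polyadenylated RNA was sequenced from both ends with a kit that keeps strand, and levels are given as TPM, a gene's share of all transcripts scaled to a common total, which is corrected for transcript length and lets genes be compared within a library. Between 13681 and 13967 genes reached 1 TPM in a library, and the count table, which covers 7599 genes, held between 13988166 and 18572154 reads per column. The library identifiers fall into 2 number series whose meaning was not given in the sources used here. Series 1 holds both 1 h libraries and 8 h replicate 14, and series 2 holds 8 h replicates 13 and 15. The share of TPM from mitochondrially encoded genes was 10.7% to 11.1% in series 1 and 6.23% to 6.30% in series 2. Xist lay between 0.0285 and 0.0611 TPM in series 1 and between 165.3 and 199.7 TPM in series 2, and 4 Y-linked genes summed to between 137.6 and 180.9 TPM in series 1 and to at most 0.0253 TPM in series 2. The 3 libraries of series 1 thus went against the label female, and since both 1 h libraries are among them, time could not be compared without them. All 8 precursor cell markers exceeded a mean of 1 TPM, and none of 5 microglial or 3 pericyte markers did, with Aif1 and Tmem119 at 0. Series and time overlap in all but 1 library, so each comparison of time was also fitted with a series term, which sets 8 h replicate 14 against the 1 h libraries.

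Of the 10 genes, 9 had a mean of at least 1 TPM. Apex1, the endonuclease that cuts the strand at abasic sites, was highest in every library, with a mean of 97.7 TPM. Xrcc1, Polb and Ogg1 followed at means between 24.8 and 43.2 TPM, and Ung, Nthl1, Neil1, Neil3 and Mutyh lay between 5.43 and 14.5 TPM. Neil2 was listed at 0 in 4 of the 5 libraries. Of the neighbours in this order, Apex1 and Xrcc1, Polb and Ogg1, Ogg1 and Ung, and Mutyh and Neil2 did not overlap over the 5 libraries. The other neighbours overlapped, so that Xrcc1 and Polb, Ung and Nthl1, Nthl1 and Neil1, Neil1 and Neil3, and Neil3 and Mutyh were not set apart beyond the spread of the libraries. Ung did lie above Neil1, Neil3 and Mutyh, and Neil1 above Mutyh, without overlap. Among the 13870 genes with a mean of at least 1 TPM, Apex1 lay at percentile 87.0 and Mutyh at percentile 21.2.

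**Figure D1:**
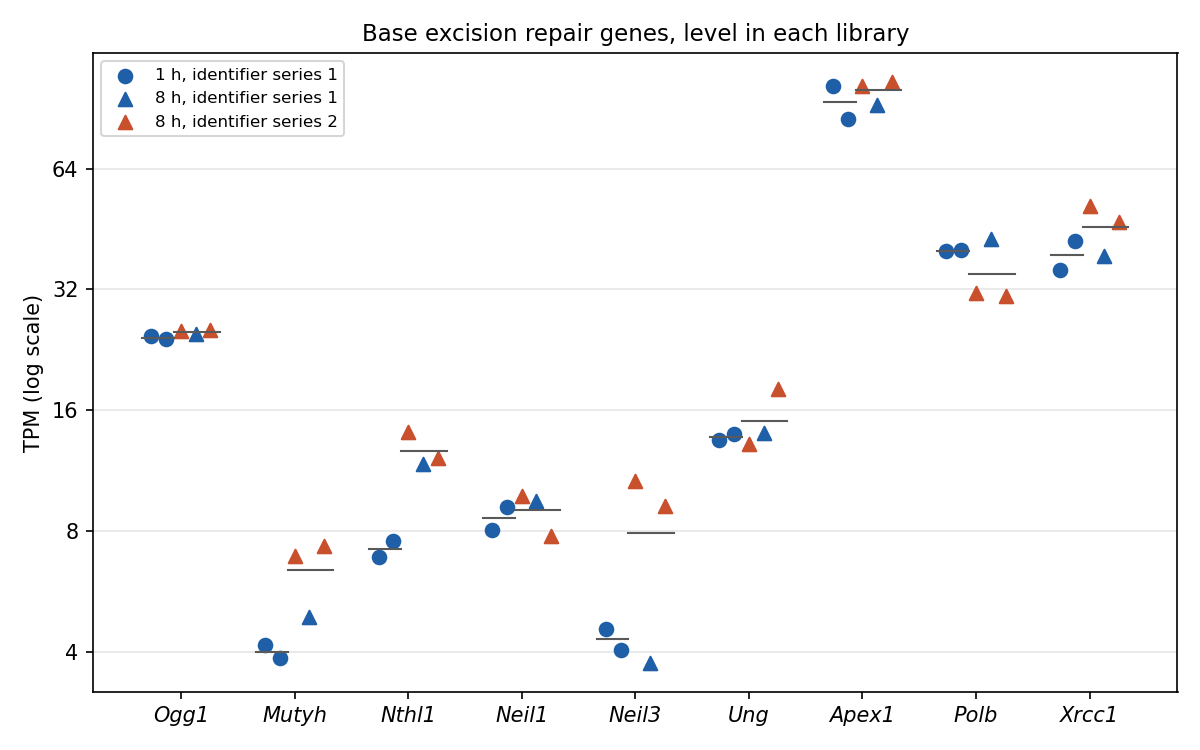
TPM (log scale) of 9 repair genes in each library, in the order of the text by role. Circles are 1 h libraries, triangles 8 h libraries, blue marks identifier series 1 and orange series 2, and lines mark the mean of each time. Neil2 is left out because it was listed at 0 in 4 libraries. Nthl1 and Mutyh are higher in every 8 h library, while Neil3 is high only in the orange triangles, at 9.25 and 10.7 TPM.

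The promoters of the 4 glycosylase genes that the comparisons turn on are shown first, to set the gene that differed between identifier series (Neil3) beside the 3 whose 8 h libraries all exceeded the 1 h libraries (Nthl1, Mutyh and Ogg1). Each runs from 250 bases before to 50 bases after the RefSeq start, on GRCm38.p6, 5′ to 3′ on the strand of the gene. Capitals mark matches, on either strand, to CCAAT (bound by NF-Y) and GGGCGG (bound by SP1).
Neil3, chr8:53639016-53639315, minus strand: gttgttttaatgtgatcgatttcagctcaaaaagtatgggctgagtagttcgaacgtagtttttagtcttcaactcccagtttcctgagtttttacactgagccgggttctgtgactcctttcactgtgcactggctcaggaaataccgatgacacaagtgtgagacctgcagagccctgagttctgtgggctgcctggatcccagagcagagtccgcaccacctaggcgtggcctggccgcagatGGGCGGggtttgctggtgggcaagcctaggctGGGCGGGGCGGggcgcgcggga
Nthl1, chr17:24632432-24632731, plus strand: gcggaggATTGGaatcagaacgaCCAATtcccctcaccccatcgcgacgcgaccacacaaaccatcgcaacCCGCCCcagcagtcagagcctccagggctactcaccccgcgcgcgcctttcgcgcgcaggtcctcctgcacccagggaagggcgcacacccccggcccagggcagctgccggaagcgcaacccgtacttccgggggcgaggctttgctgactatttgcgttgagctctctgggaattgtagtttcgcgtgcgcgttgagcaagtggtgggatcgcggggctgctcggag
Mutyh, chr4:116807484-116807783, plus strand: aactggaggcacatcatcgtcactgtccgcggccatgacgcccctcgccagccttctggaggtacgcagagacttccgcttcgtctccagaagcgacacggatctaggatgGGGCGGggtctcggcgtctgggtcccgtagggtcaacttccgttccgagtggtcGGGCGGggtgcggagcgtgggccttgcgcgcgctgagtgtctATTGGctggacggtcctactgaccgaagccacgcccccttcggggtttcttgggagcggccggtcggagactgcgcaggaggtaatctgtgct
Ogg1, chr6:113326726-113327025, plus strand: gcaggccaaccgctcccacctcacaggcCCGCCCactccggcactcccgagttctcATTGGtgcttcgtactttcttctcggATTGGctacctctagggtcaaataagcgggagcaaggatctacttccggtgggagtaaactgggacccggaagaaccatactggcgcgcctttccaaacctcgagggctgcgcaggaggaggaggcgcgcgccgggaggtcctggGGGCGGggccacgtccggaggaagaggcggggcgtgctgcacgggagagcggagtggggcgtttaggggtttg

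The Neil3 promoter held GGGCGG 3 times, the last pair overlapping by 1 base, and no CCAAT. The Nthl1 promoter held CCAAT 2 times and GGGCGG 1 time, the Mutyh promoter CCAAT 1 time and GGGCGG 2 times, and the Ogg1 promoter 2 of each. These letters are common, since CCAAT was found in 37.4% and GGGCGG in 35.7% of all 32851 promoters of the same length. The other motifs searched on both strands were the E2F sites TTTGGCGC, TTTCCCGC and TTTGCCGC (0.514%, 1.07% and 0.441% of all promoters), the cell cycle homology region as TTTGAA and TTTAAA (17.9% and 13.2%), TGACGTCA (CREB, 1.79%), CACGTG (E box, 7.15%) and the NRF1 motif (0.971%). None of these was in the 4 windows shown. Of the 8 members with a window, Apex1 alone held CACGTG, 3 times in all. By CpG content the windows shown for Mutyh (31), Nthl1 (30) and Ogg1 (25) lay well above the median of 7 for all promoters, and Neil3 had 14. Mutyh has a second RefSeq window, chr4:116814069-116814368, and the first listed is shown. The second had 2 CpG, CCAAT 1 time and no GGGCGG. Neil2 and Polb were not matched.

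Ogg1 and Mutyh act on 8-oxoguanine. Ogg1 (ENSMUSG00000030271, chr6:113326972-113335068 on GRCm38) removes the oxidised base where it pairs with cytosine, and was the steadiest gene of the list. Its level was 24.6 and 24.0 TPM at 1 h and 25.2, 24.7 and 25.3 TPM at 8 h, in replicate order. All 8 h libraries thus lay above both 1 h libraries, but by little: the coefficient of variation over the 5 libraries was 2.14%. The means at 1 h (n = 2) and 8 h (n = 3) were 24.3 and 25.1 TPM with SDs of 0.385 and 0.321, a log2 difference of 0.05 with a 95% interval from -0.20 to 0.29 (limma, adjusted p = 0.834). The median of all genes tested was 0.10, and Ogg1 differed from it by -0.06. Scaling the libraries by the median ratio, which moved the median of all genes by -0.10, likewise turned the estimate for Ogg1 to -0.06. Ogg1 shares 945 bases with Camk1 on the opposite strand, which stood at 33.4 to 55.4 TPM, and whether the strand was used in the quantification was not given in the sources used here.

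Mutyh (ENSMUSG00000028687, chr4:116807723-116819440) removes the adenine that was placed opposite 8-oxoguanine. It was measured at 4.15 and 3.85 TPM at 1 h and at 6.92, 4.90 and 7.32 TPM at 8 h. Every 8 h library was above both 1 h libraries, and replicate 14 was the lowest of the 8 h group. At 1 h (n = 2) the mean was 4.0 TPM with an SD of 0.214, and at 8 h (n = 3) it was 6.38 TPM with an SD of 1.3. The log2 difference of 0.55 ± 0.20 (SE) did not pass the test (limma, adjusted p = 0.385, range over the alternatives 0.0219 to 0.794). That range had its low end without 8 h replicate 14, where time and series cannot be told apart. Fitted with a series term, the difference was 0.24 ± 0.17 (limma, adjusted p = 0.730). The ratio of Ogg1 to Mutyh was 5.91 and 6.23 at 1 h and 3.65, 5.05 and 3.45 at 8 h. Since Ogg1 hardly varied, this ratio repeats the lack of overlap of Mutyh itself. Every 8 h library lay above both 1 h libraries in 23.7% of all genes.

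Nthl1 (ENSMUSG00000041429, chr17:24632682-24638838), a glycosylase for oxidised pyrimidines such as thymine glycol, showed the highest estimate of change with time. Its values were 6.91 and 7.56 TPM at 1 h against 14.1, 11.7 and 12.1 TPM at 8 h. The groups did not overlap, and here replicate 14 lay close to replicate 15. The 1 h libraries averaged 7.23 TPM (SD 0.461, n = 2), the 8 h libraries 12.7 TPM (SD 1.29, n = 3). The log2 difference was 0.73 ± 0.14 (SE), with a 95% interval from 0.38 to 1.08. It did not pass the adjustment over all genes (limma, adjusted p = 0.262, range over the alternatives 0.0158 to 0.794). That range had its low end without 8 h replicate 14. A series term left the estimate at 0.63 ± 0.16, again without passing (limma, adjusted p = 0.376). Series 2 and series 1 differed by 0.15 ± 0.16 for Nthl1 (limma, adjusted p = 0.608). Mean coverage per base was between 17.0 and 42.3 reads.

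The 3 Neil genes encode the mammalian relatives of bacterial endonuclease VIII, which excise oxidised pyrimidines and ring-opened purines. Neil1 (ENSMUSG00000032298, chr9:57142800-57148305) was measured at 8.07 and 9.17 TPM at 1 h and at 9.77, 9.50 and 7.77 TPM at 8 h. The groups overlapped, and the log2 difference was 0.05 with a 95% interval from -0.33 to 0.44 (limma, adjusted p = 0.876). Neil2 (ENSMUSG00000035121, chr14:63182443-63193541) was listed at 0 in every library but 8 h replicate 13, where it stood at 0.131 TPM, and it fell below the minimum mean of 1 TPM for the test.

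Neil3 (ENSMUSG00000039396, chr8:53586867-53639065), which also acts on single-stranded DNA and is known for its expression in dividing cells, varied the most of the 9 tested members. It stood at 4.55 and 4.03 TPM at 1 h and at 10.7, 3.75 and 9.25 TPM at 8 h. The 8 h group was split: replicates 13 and 15 were the highest of all libraries and replicate 14 was the lowest, so that the times overlapped. The coefficient of variation was 50.4% and the highest library was 2.84-fold above the lowest. Between times the log2 difference was 0.65 ± 0.40 (SE, limma, adjusted p = 0.482, range over the alternatives 0.00916 to 0.846). That range had its low end without 8 h replicate 14. A series term turned the difference to -0.15 ± 0.18 (limma, adjusted p = 0.831). Coverage was low, at a mean of 1.45 to 4.43 reads per base, so each value rests on few reads.

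Between identifier series, set against each other at 8 h, Neil3 was the member that passed the test. It was higher in series 2 by 1.2 ± 0.18 on the log2 scale, with a 95% interval from 0.77 to 1.64 (limma, adjusted p = 0.0173, range over the alternatives 0.0123 to 0.109). The estimate sets 2 libraries against 1, and the lone library is assumed to vary like the others. Leaving out replicate 13 gave 1.11 (limma, adjusted p = 0.0932) and leaving out replicate 15 gave 1.29 (limma, adjusted p = 0.0807), so the call was lost with either library left out while the size held. In all, 1 of 9 members was called between series, against 4.02% of all genes tested (3.33% higher and 0.692% lower in series 2). What the series stand for, the sex of the donor animal and the cell cycle genes described below cannot be told apart for this difference.

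Ung (ENSMUSG00000029591, chr5:114130386-114139323) removes uracil from DNA, a product of cytosine deamination and of dUTP used in synthesis. Its level was 13.5 and 13.9 TPM at 1 h and 13.1, 14.1 and 18.0 TPM at 8 h. Replicate 15 was the highest, and replicate 13 was below both 1 h libraries. The log2 difference was 0.11 ± 0.16 (SE, limma, adjusted p = 0.739).

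The later steps were the most abundant. Apex1 (ENSMUSG00000035960, chr14:50924968-50927139) was measured at 103 and 84.9 TPM at 1 h and at 103, 92.4 and 105 TPM at 8 h. The times overlapped, and the log2 difference was 0.10 with a 95% interval from -0.20 to 0.40 (limma, adjusted p = 0.707). Apex1 shares 1070 bases with Tmem55b on the opposite strand, which stood at 19.9 to 32 TPM.

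Polb (ENSMUSG00000031536, chr8:22628119-22653437), the polymerase that fills a gap of single bases, was the member with the lowest estimate. It stood at 39.9 and 40.1 TPM at 1 h and at 31.4, 42.8 and 30.9 TPM at 8 h. As for Neil3, replicate 14 went with the 1 h libraries, but here replicates 13 and 15 were the low ones. The log2 difference between times was -0.20 ± 0.17 (SE, limma, adjusted p = 0.572, range over the alternatives 0.0479 to 0.859). That range had its low end without 8 h replicate 14. After a series term was added, the difference was 0.10 ± 0.11 (limma, adjusted p = 0.831). Series 2 was lower by an estimate of -0.45 ± 0.11 on the log2 scale, short of the threshold (limma, adjusted p = 0.0652, range over the alternatives 0.0422 to 0.200).

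Xrcc1 (ENSMUSG00000051768, chr7:24547150-24573438), the scaffold that holds polymerase and ligase at the break, was measured at 35.9 and 42.3 TPM at 1 h and at 51.6, 38.8 and 47.2 TPM at 8 h. Replicate 14 fell between the 1 h libraries, so the times overlapped. The log2 difference was 0.22 ± 0.15 (SE, limma, adjusted p = 0.522, range over the alternatives 0.0988 to 0.995). That range had its low end without 8 h replicate 14. After a series term was added, the difference was -0.0054 ± 0.14 (limma, adjusted p = 0.995). The ratio of Xrcc1 to Polb was 0.899 to 1.06 in series 1 and 1.53 to 1.64 in series 2.

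Taking the 9 tested members as a list, 0 passed the test between 8 h and 1 h (limma, adjusted p no higher than 0.05 with a log2 difference beyond 1 either way), where 0.0433% of all genes did. At an unadjusted p under 0.05, 2 members (Nthl1 and Mutyh) were counted, against 12.3% of all genes. In 3 members (Ogg1, Mutyh and Nthl1) every 8 h library lay above both 1 h libraries, against 23.7% of all genes, and in 0 members every 8 h library lay below, against 9.43%. The median log2 difference of the members was 0.11, beside 0.10 for all genes tested, and after adding a series term 0.03 beside 0.01. Without 8 h replicate 14 the adjusted p of 4 members (Neil3, Nthl1, Mutyh and Polb) was at most 0.05, against 19.9% of all genes. Neil3 alone then also passed the fold threshold, at 1.05 (limma, adjusted p = 0.00916), where 4.1% of all genes did. In that fit the 1 h libraries are all of series 1 and the 8 h libraries all of series 2, so time, series and donor sex cannot be told apart.

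**Figure D2:**
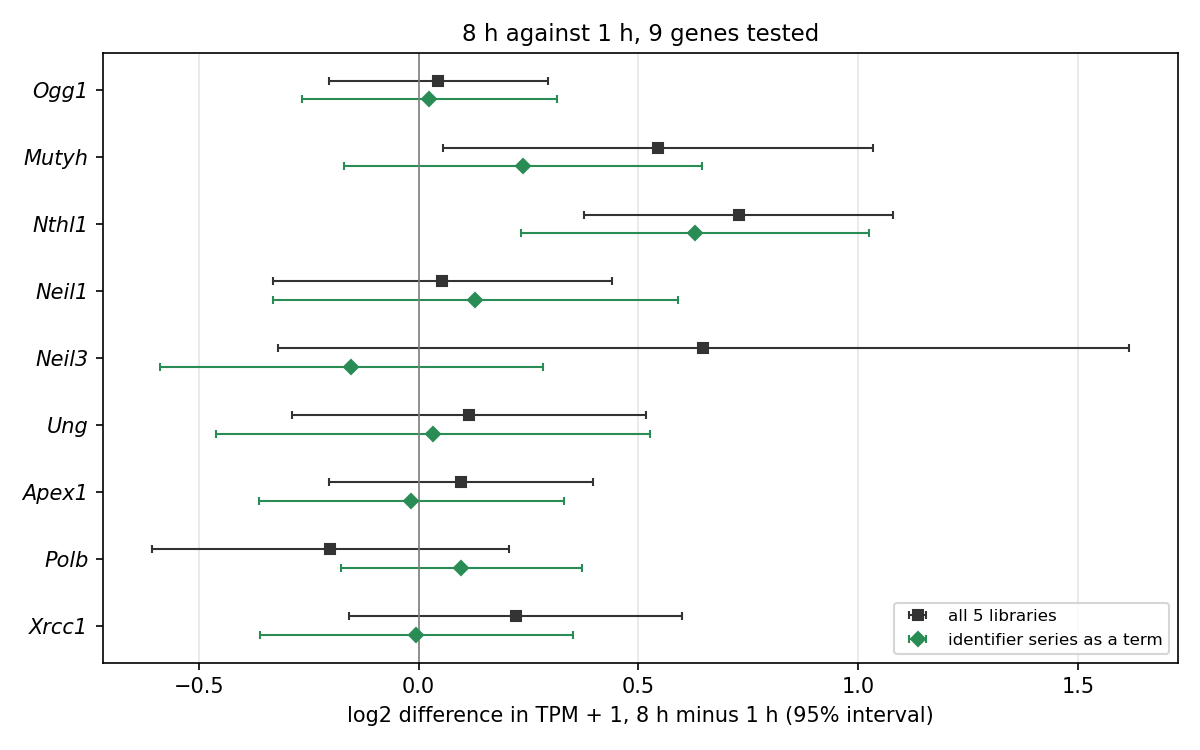
Log2 difference in TPM + 1 between 8 h and 1 h for the 9 tested genes, with 95% intervals from limma. Black squares use all 5 libraries and green diamonds add the identifier series as a term. The estimate for Nthl1 is 0.73 and 0.63 in the 2 fits, while that for Neil3 moves from 0.65 to -0.15.

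Between identifier series, 6 of 9 members had both series 2 libraries above all series 1 libraries (39.8% of all genes), and Polb had both below (13.5% of all genes). Beside Neil3, the estimates were 0.46 ± 0.17 for Mutyh, 0.34 ± 0.14 for Xrcc1, 0.17 ± 0.14 for Apex1, 0.12 ± 0.20 for Ung, 0.03 ± 0.12 for Ogg1 and -0.11 ± 0.19 for Neil1. None of these passed (limma, adjusted p from 0.148 to 0.899). The median over the members was 0.15, beside 0.11 for all genes. In these bulk libraries, more cells of a kind and more RNA per cell cannot be told apart.

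**Figure D3:**
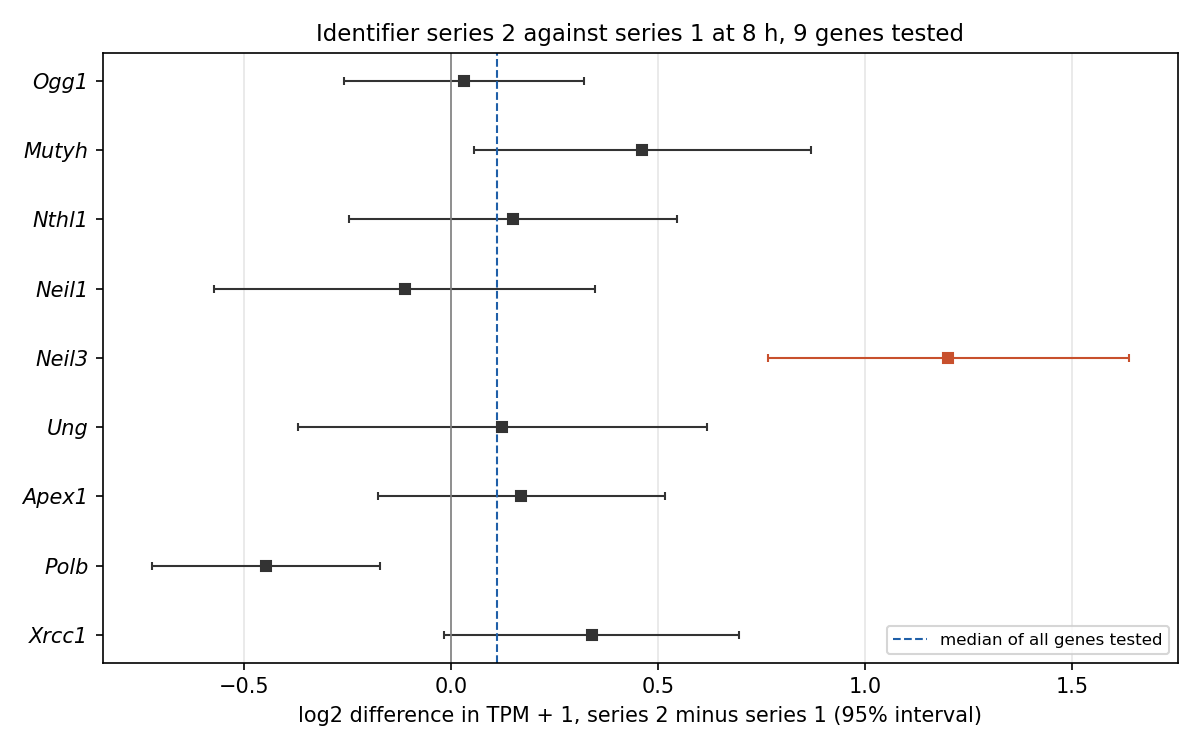
Log2 difference in TPM + 1 between identifier series 2 (8 h replicates 13 and 15) and series 1 (8 h replicate 14), from limma with time as a term and with 95% intervals. Orange marks the gene that passed the test, and the dashed line is the median of all genes tested (0.11). Neil3 at 1.2 and Polb at -0.45 lie farthest from that line.

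Other genes of the pathway were examined as lists. Of the 4 other glycosylases, 0 passed between times and 0 between series. Mbd4, which acts on mismatched thymine and uracil at CpG sites, had the highest estimate between times at 0.55 ± 0.17, with 4.44 and 3.68 TPM at 1 h and 6.87, 5.46 and 6.85 TPM at 8 h (limma, adjusted p = 0.363). Tdg, the glycosylase for thymine mispaired with guanine, was the most abundant at 69.7 and 72.6 TPM at 1 h and 78.7, 82.5 and 87.4 TPM at 8 h. In both, and in 3 of the 4 glycosylases in all, every 8 h library was above the 1 h libraries, as in 23.7% of all genes. Mpg, the glycosylase for alkylated purines, stood at 3.95 and 5.03 TPM at 1 h and at 3.27, 6.36 and 3.82 TPM at 8 h, with an estimate of -0.70 ± 0.21 between series (limma, adjusted p = 0.0977).

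Among 16 genes of the later strand-break and synthesis steps, 0 passed between times, with a median of 0.25 beside 0.10 for all genes, and 0.06 beside 0.01 after a series term was added. In 7 of the 16 every 8 h library lay above both 1 h libraries, against 23.7% of all genes. The highest estimate was that of Parp1, the sensor of strand breaks, at 0.39 ± 0.17 (limma, adjusted p = 0.406). Between series, 1 of the 16 passed. This was Fen1, the flap endonuclease of long-patch repair and of replication, at 1.76 ± 0.13 (limma, adjusted p = 0.00462). Its levels were 37.9 and 42.5 TPM at 1 h and 45.9, 13.1 and 47.6 TPM at 8 h, with replicate 14 as the low library. In the count table Fen1 lay between 63.4 and 87.9 CPM (reads scaled to a common column total) in every column, with none as low. Pcna, the sliding clamp, was the most abundant of the 16, at 304 to 314 TPM at 1 h and 404, 279 and 445 TPM at 8 h, with a series estimate of 0.60 ± 0.11.

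Of 7 genes that keep damaged nucleotides out of the pool, 0 passed between times. Nudt1, which hydrolyses 8-oxo-dGTP and so acts ahead of Ogg1 and Mutyh, was measured at 28.7 and 18.0 TPM at 1 h and 45.0, 31.8 and 24.4 TPM at 8 h, with overlap (0.50 ± 0.30 on the log2 scale, limma, adjusted p = 0.478). Dut, which removes dUTP and so limits the substrate of Ung, was the 1 of 7 that passed between series, at 1.09 ± 0.22 (limma, adjusted p = 0.0402). It stood at 40.5 and 59.2 TPM at 1 h and at 78.4, 37.1 and 82.0 TPM at 8 h.

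Genes of the cell cycle, in lists written with earlier results of these data known, were also higher in series 2. Of 10 genes of G2 and mitosis 9 were called higher in series 2 and 0 lower, with a median of 1.46, and of 13 S phase genes 1 (Rrm2) was called higher and 0 lower, with a median of 0.62. Of all genes 3.33% were called higher, and their median was 0.11. In all 10 and all 13, both series 2 libraries exceeded every series 1 library, against 39.8% of all genes. The summed level of the 10 mitotic genes was 526.7 and 566.8 TPM at 1 h, 501.9 TPM in 8 h replicate 14, and 1343 and 1426 TPM in replicates 13 and 15. Relative to the mean of the 1 h libraries, Neil3 was at 2.48 and 2.16 in replicates 13 and 15, and the mitotic genes at 2.46 and 2.61. Of the 10 mitotic genes 9 had counts, and Plk1, a mitotic kinase at 23.0 to 34.5 TPM in series 1 and 107 to 108 TPM in series 2, was at 36.2 and 54.9 CPM at 1 h and at 41.7, 47.9 and 153.6 CPM in the columns named 13, 14 and 15. Relative to the 1 h libraries, the summed level of the 10 repair members was at 1.13 and 1.12 in replicates 13 and 15. Apex1, the highest member in every library, is the largest part of that sum, so single members can differ more. The part of cell cycle genes in the Neil3 difference was not tested.

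**Figure D4:**
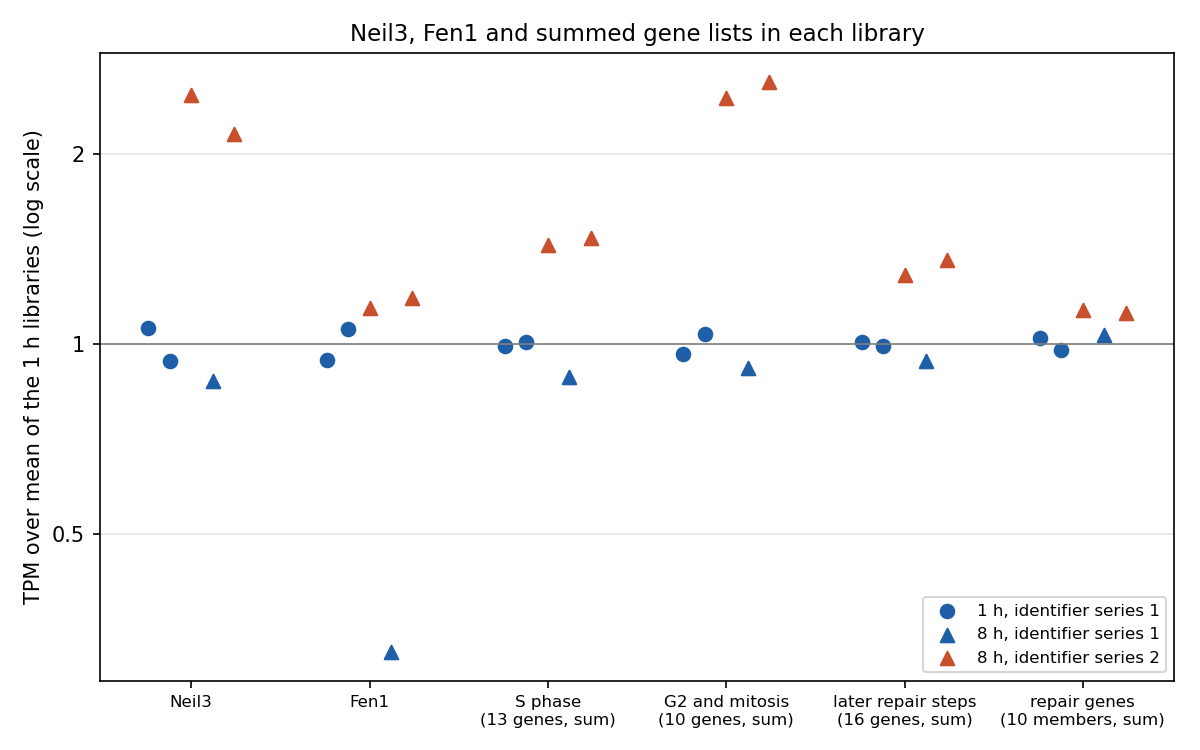
TPM relative to the mean of the 1 h libraries (log scale) for Neil3, Fen1 and the summed TPM of 4 gene lists, in each library, with symbols by time and colours by identifier series. Neil3 and the mitotic genes lie above 2 in both series 2 libraries and at 0.874 and 0.918 in 8 h replicate 14. The sum of the repair members, of which Apex1 is the largest part, stays between 0.977 and 1.13.

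Read counts were at hand for 6 of the 10 members (Ogg1, Mutyh, Neil1, Ung, Apex1 and Polb). In counts, 0 members and 0 of 7590 genes passed between times (edgeR, by the same rule), which is 0.0% of all genes. At an unadjusted p under 0.05, 199 genes were counted (2.62%) and 0 of the 6 members, and DESeq2 called 0 genes. Mutyh was counted at 71 and 88 reads at 1 h and at 119, 86 and 160 reads at 8 h, which are 5.08 and 5.33 CPM and 6.60, 5.94 and 8.62 CPM. Every 8 h column was above the 1 h columns, with a log2 difference of 0.41 ± 0.28 (edgeR, adjusted p = 0.966). Polb, at 38.5 and 38.2 CPM at 1 h, lay at 40.1, 33.3 and 27.2 CPM at 8 h, with a log2 difference of -0.22 ± 0.18 (edgeR, adjusted p = 0.966). The other 4 differed by estimates between -0.0001 and 0.03.

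The count columns named for the 8 h replicates did not follow the TPM tables of the same names. For the 1 h columns, 77.5% of 7227 genes had counts within 0.1 (log2) of those expected from the TPM table of the same name. Here the counts expected per TPM were set for each gene on the column and table of the other 1 h library. Both 1 h columns therefore give the same figure by construction. For the 8 h columns, the counts expected per TPM were set on both 1 h libraries. The column named 8 h replicate 13 reached 25.0% with its own table and 78.6% with that of replicate 14, and the column named replicate 15 reached 41.2% with its own and 78.7% with that of replicate 13. The column named replicate 14 reached 25.3% with its own table and at most 39.7% with any. For Polb, going by name, the low TPM values were those of replicates 13 and 15, and the low counts those of the columns named 14 and 15. By the closest match, the column named 13 (40.1 CPM) went with the table of replicate 14 (42.8 TPM). The column named 15 (27.2 CPM) went with the table of replicate 13 (31.4 TPM). Since 1 column matched none of the tables, whether counts and TPM describe the same 3 libraries at 8 h was not settled. The series comparison was made in TPM alone, with each table placed in its series by the labels. Whether the tables or the columns carry the right names is not known, and the series estimates, that of Neil3 included, hold only if the tables do.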

How the data were processed

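Poly-A RNA of 5 libraries of sham-exposed NPCs was sequenced. Reads were aligned to GRCm38 (STAR) and counted over genes (featureCounts) by the authors, and the deposited read count table holds whole counts per Ensembl gene for 7599 genes, without normalization. For each library the authors also deposited TPM, FPKM and mean per-base coverage per gene; the tool was not given in the sources used here. Groups and replicates came from the labels, count columns were assigned by name, and 0 columns were left unassigned.

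TPM was summed per gene identifier. Both TPM tests used limma 3.58.1 with an intensity trend (R 4.3.3) on log2(TPM + 1), a scale that understates the change of low genes, for 13870 genes with a mean of at least 1 TPM. They were two-sided, with Benjamini-Hochberg adjustment over all genes, and calls needed an adjusted p no higher than 0.05 with a log2 difference beyond 1 either way, the study's thresholds. The second test took the coefficient of the identifier series in a model with time. Counts were tested with edgeR 4.0.16 (quasi-likelihood, TMM), with DESeq2 1.42.0 as an alternative. P-values measure the spread between these libraries. The fits were tested on simulated data. The named genes were all members, and from each pathway list the genes with the highest and lowest estimates and the highest mean TPM. The members and lists were chosen with earlier results of these data known. Promoter windows are RefSeq's on GRCm38.p6, and 8 of 10 members matched. Coordinates are those of the tables, which were identical to GENCODE vM21 for 83.2% of 45143 shared genes.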

Additional observations from a re-analysis of the deposited data

How the results depend on the processing

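Of 255 recomputed member values, 220 kept both direction and side of the threshold. Part of these could not change direction by construction. The estimate stays the same under adjusted p alone, without the intensity trend and, in TPM, without the filter. So it does between series with either 1 h library left out. Between times, the number of called genes was 0 without the filter and 19 with the series as a term, and leaving out 1 library gave 0 to 568 genes and 0 to 1 members, the 1 being Neil3 without 8 h replicate 14. Between series, 0 members and 0 genes were called without the filter (Neil3 stayed at 1.2, limma, adjusted p = 0.109), 1261 genes by adjusted p alone, and 0 to 1 members and 23 to 644 genes with 1 library left out, the lowest without replicate 13 or 15. Leaving out 8 h replicate 14 leaves no series comparison. The cause was not tested. By construction, dropping the filter adds genes, leaving out a library removes a sample, the series term changes the model and adjusted p alone changes the rule for a call.

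Directions turned only for estimates that had not passed. Between times, median-ratio scaling gave -0.059 for Ogg1, -0.042 for Neil1 and -0.011 for Apex1, and series 1 alone, like the series as a term, gave -0.15 for Neil3, -0.017 for Apex1, 0.097 for Polb and -0.0054 for Xrcc1. Between series, median-ratio scaling, which moved the median of all genes by -0.12, gave -0.098 for Ogg1 and -0.0024 for Ung. In counts, Ung was 0.0021 with DESeq2 size factors, 0.0014 by DESeq2 and 0.28 with a series term set by column names, where Neil1 was -0.12. With 1 library left out, the ranges that crossed 0 were, between times in TPM, -0.029 to 0.15 for Neil1, -0.042 to 0.23 for Apex1 and -0.013 to 0.20 for Ung. Between series they were -0.26 to 0.036 for Neil1 and -0.090 to 0.34 for Ung. In counts they were -0.014 to 0.073 for Ogg1, -0.067 to 0.13 for Neil1, -0.15 to 0.13 for Ung and -0.022 to 0.075 for Apex1. Series 1 alone called 7 genes and 0 members between times.

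No paired analysis was possible because the 1 h and 8 h groups share no replicate number. The depth of the full libraries is unknown, since the count table covers part of the genes, and Neil3, at a mean coverage of at most 4.43 reads per base, has the lowest coverage of the members tested.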

Other observations

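By the likeness rule, the 3 genes whose profile over the 5 libraries lay nearest to that of Neil3 were Sqle, Paox and Pla2g16, among 12192 genes compared. The root mean square differences in centred log2(TPM + 1) were 0.0173, 0.0432 and 0.0490. Sqle, the squalene epoxidase of sterol synthesis, stood at 169.1 and 157.1 TPM at 1 h and at 355.8, 147.2 and 321.4 TPM at 8 h. As for Neil3, replicates 13 and 15 were high and replicate 14 was the lowest.

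The ratio of Neil3 to Neil1 was 0.565 and 0.439 at 1 h and 1.09, 0.395 and 1.19 at 8 h, so Neil3 was the higher of the pair in the series 2 libraries alone. The ratio of Ogg1 to Nthl1 was 3.55 and 3.18 at 1 h and 1.79, 2.11 and 2.08 at 8 h. Since Ogg1 hardly varied, this repeats the lack of overlap of Nthl1 itself, seen upward in 23.7% of all genes. The ratio of Apex1 to Ogg1 stayed between 3.54 and 4.2 in all 5 libraries.

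Markers of other cells differed between libraries as well. The summed level of 4 genes of myelinating oligodendrocytes was 164.0 and 115.3 TPM at 1 h and 35.5, 112.8 and 69.1 TPM at 8 h, lowest in both series 2 libraries. That of 5 neuronal genes was 62.4 to 68.3 TPM in series 1 and 43.2 to 46.4 TPM in series 2. Of these 5, Tubb3 and Syt1 had log2 estimates of -0.93 and -1.31 for series 2 against series 1, while Dcx, Snap25 and Rbfox3 had estimates of 0.47, 0.38 and 0.02, and the median of the 5 was 0.02. Of 5 endothelial markers 2 exceeded a mean of 1 TPM, with Cldn5 and Cdh5 at 0, and of 4 ependymal markers 2 did, with Tmem212 at 0. Whether these cells have a part in the levels of the repair genes was not tested.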
